A study of Mus musculus with 12 samples.

Results

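The level of 10 genes of ceramide and sphingolipid metabolism was followed in mouse dorsal skin after DNCB application and after treatment with mesenchymal stem cells (MSCs). The genes are Sptlc2, Sptlc3, Cers3, Cers4, Degs2, Ugcg, Abca12, Smpd1, Acer1 and Asah2, which cover the synthesis, glucosylation, export, release and breakdown of ceramide. They were taken by name, for their function, from the 36400 genes of the deposited table, with earlier results of these data known. All 10 passed the filter that left 21890 genes for testing.

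Ceramides fill the space between the dead cells of the stratum corneum together with cholesterol and free fatty acids, and this lipid layer limits water loss. Serine palmitoyltransferase makes the sphingoid base, ceramide synthases add a fatty acid, and a desaturase or hydroxylase step completes the ceramide. Keratinocytes then convert ceramide to glucosylceramide and sphingomyelin, load these into lamellar granules, and release ceramide from them again outside the cell, where ceramidases can split it further. Sebaceous glands, which sit beside the hair follicle, run a lipid synthesis of their own and share several of these enzymes.

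Female BALB/c mice, bought at 6 weeks of age, were allotted to 4 groups with 3 libraries each, and skin was collected on day 30. Control mice (labelled Solvent) received only the acetone and olive oil vehicle on shaved dorsal skin. The other 3 groups were sensitized with 1% and then challenged with 0.5% DNCB (1-chloro-2,4-dinitrobenzene, a contact sensitizer that gives an eczema-like dermatitis), and the DNCB group received nothing further. The scMSC group also had 4 injections of 2000000 human umbilical cord MSCs between day 13 and day 25, each in 100 µL under the dorsal skin. Mice of the scivMSC group had the same number of cells per dose, with 50 µL given subcutaneously and the other 50 µL by tail vein. The model is one of chemically induced dermatitis and the MSCs came from another species. Which mouse gave which library is not stated in the labels, so p-values measure the spread between these libraries.

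Each library held between 63877153 and 75134001 estimated counts. Keratinocyte markers such as Krt10, with 2061 to 6219 FPKM (fragments per kilobase of transcript, scaled to the mapped fragments of the library), were present in all 12 libraries, as the label dorsal skin requires. Control replicate 3 held more macrophage marker transcripts (764 FPKM over 6 genes) than the other 2 control libraries (196 and 213). The scivMSC replicate 3 held less of the fibroblast and macrophage lists (88.8 and 45.6 FPKM) than any other library. Values without one of these libraries stand beside some of the fold changes below, and not beside every one that moved without it. A level below is an FPKM value, which is scaled to gene length but lacks the scaling between libraries used for fold changes. In DNCB against control the median log2 difference of all genes was 0.197 on log2(FPKM + 0.1) and 0.02 on normalised counts. An order of libraries by FPKM may thus differ from that by normalised counts. A fold change is the first group minus the second on the log2 scale, from normalised counts and ± its standard error. A gene passed at an adjusted p under 0.05 in edgeR's quasi-likelihood test with Benjamini-Hochberg adjustment over the 21890 genes. With 3 libraries on each side, an exact permutation test of 1 gene (two-sided) gives at best p = 0.10.

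DNCB skin held less Cers4, Smpd1, Acer1, Asah2 and Sptlc3 RNA and more Sptlc2 RNA than control skin, and these 6 of the 10 genes passed the test. Cers4, a ceramide synthase, changed most, with a mean of 2.59 FPKM in DNCB against 16.7 in control. With MSCs the genes took different courses. Cers4 and Smpd1 rose above DNCB in both MSC groups, Acer1 passed for scivMSC alone, and Sptlc3 and Asah2 in scMSC skin were below control. Degs2 had its highest mean level in DNCB and its lowest in scMSC skin. In bulk tissue, fewer cells of a type and less RNA per cell cannot be told apart, and this holds for every difference below.

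**Figure D1:**
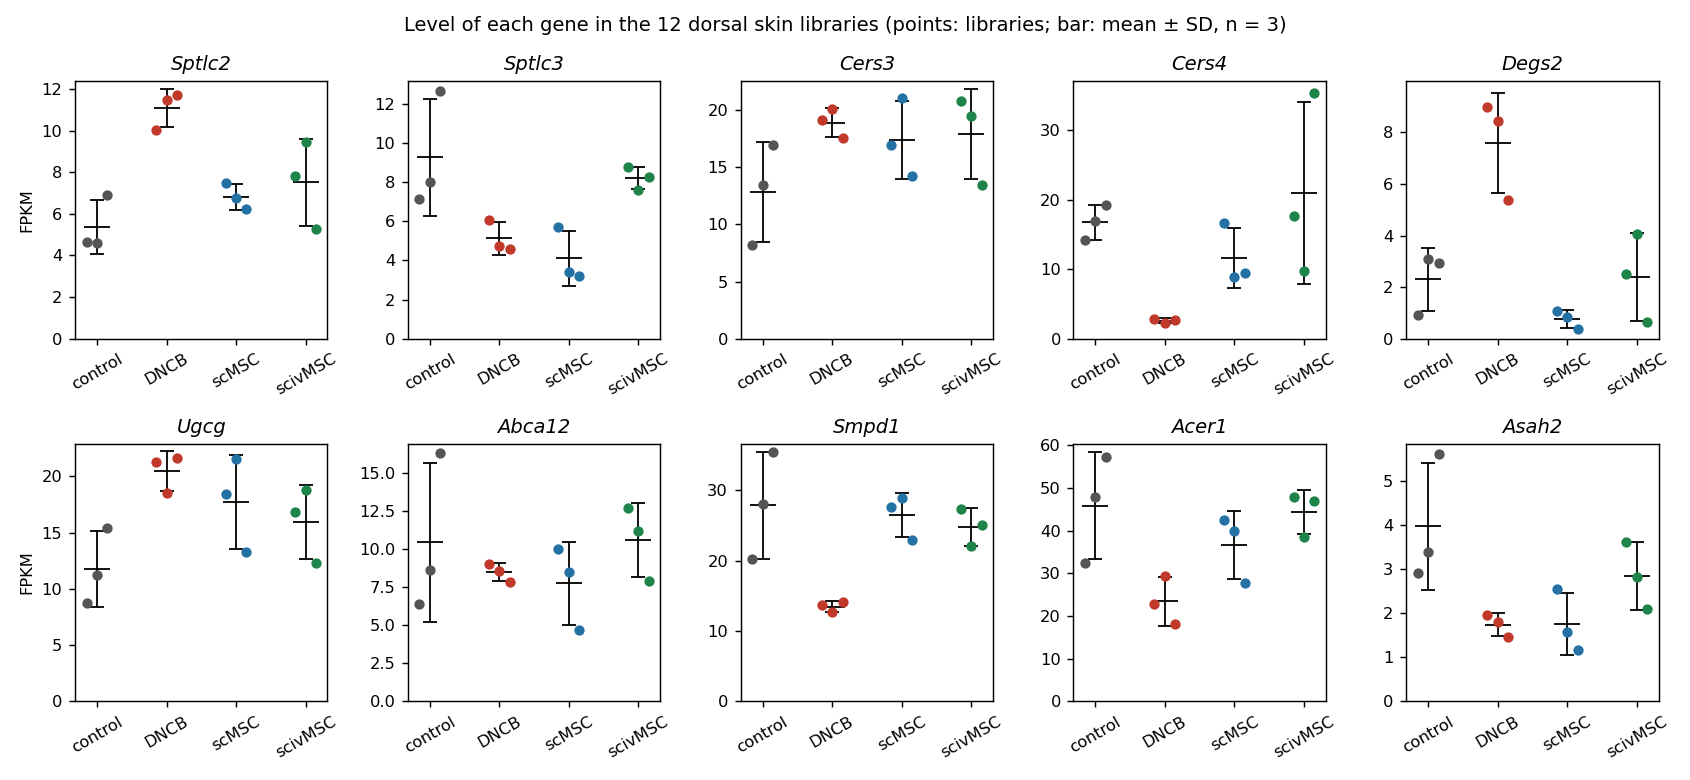
FPKM (y axis, each panel on its own scale from 0) of the 10 genes in control, DNCB, scMSC and scivMSC skin; points are libraries and bars the mean ± SD of 3. Cers4 at 2.20 to 2.88 FPKM and Smpd1 at 12.7 to 14.1 FPKM in DNCB lie below every other library, and Degs2 at 5.39 to 8.98 FPKM in DNCB lies above every other library. Of all genes tested, 31.7% were higher and 16.1% lower in every DNCB than in every control library.

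The stretch of 250 bases before the RefSeq start of transcription is shown for 4 genes that moved in both directions, so that the promoters of genes lower in DNCB (Smpd1, Acer1) can be read beside those of genes higher there (Sptlc2, which passed, and Degs2, which did not). The sequences are from RefSeq on GRCm38.p6, written 5′ to 3′ on the strand of the gene. The windows lie at chr7:105554110-105554359 (plus strand) for Smpd1, chr17:56982127-56982376 (minus) for Acer1, chr12:87388356-87388605 (minus) for Sptlc2 and chr12:108702307-108702556 (minus) for Degs2. Capitals mark matches to CCAAT or ATTGG (the CCAAT box) and to GGGCGG or CCGCCC (the GC box).
Smpd1: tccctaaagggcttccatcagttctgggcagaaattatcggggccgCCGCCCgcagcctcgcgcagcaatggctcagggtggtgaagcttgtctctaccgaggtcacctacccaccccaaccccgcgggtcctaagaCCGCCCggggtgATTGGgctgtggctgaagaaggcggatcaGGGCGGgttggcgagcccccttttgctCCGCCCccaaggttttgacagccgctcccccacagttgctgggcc
Acer1: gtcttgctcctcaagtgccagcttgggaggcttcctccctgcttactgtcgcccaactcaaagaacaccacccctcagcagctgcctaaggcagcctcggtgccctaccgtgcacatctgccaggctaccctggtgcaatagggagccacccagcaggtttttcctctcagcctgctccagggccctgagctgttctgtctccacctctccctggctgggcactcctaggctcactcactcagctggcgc
Sptlc2: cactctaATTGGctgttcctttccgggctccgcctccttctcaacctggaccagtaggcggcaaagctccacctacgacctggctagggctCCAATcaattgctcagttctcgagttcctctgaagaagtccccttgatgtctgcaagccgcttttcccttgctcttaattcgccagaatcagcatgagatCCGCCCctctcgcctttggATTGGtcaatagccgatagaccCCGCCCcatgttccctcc
Degs2: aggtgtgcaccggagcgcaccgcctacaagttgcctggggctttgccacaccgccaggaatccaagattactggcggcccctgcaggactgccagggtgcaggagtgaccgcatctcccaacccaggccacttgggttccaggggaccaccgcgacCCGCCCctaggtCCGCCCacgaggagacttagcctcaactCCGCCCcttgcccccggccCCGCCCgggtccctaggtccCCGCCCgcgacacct

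Both strands of the 10 windows were searched for 5 motifs. The GC box was in 5 of the 10 windows (Sptlc2, Cers4, Degs2, Ugcg and Smpd1), against 32.7% of 32851 RefSeq windows of the same length. The CCAAT box was in 2 (Sptlc2 and Smpd1), against 33.8%. TGAGTCA or TGACTCA (the AP-1 motif, 4.46% of all windows) was in that of Asah2, 74 bases before the start. TATAAA or TTTATA (12.4%) and CACGTG (6.02%) were in 0 of the 10. The Acer1 window printed above held none of the 5, and Smpd1 shared both of its motifs with Sptlc2, which moved the other way in DNCB skin. No motif match overlapped another.

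Sptlc2 and Sptlc3 encode alternative large subunits of serine palmitoyltransferase, the first enzyme of the pathway, and Sptlc3 is known for sphingoid bases of other chain lengths. Sptlc2 (ENSMUSG00000021036, GRCm38 chromosome 12, 87305058 to 87388355, minus strand) stood at 4.66, 4.602 and 6.89 FPKM in control replicates 1 to 3 and at 10.04, 11.5 and 11.7 FPKM in DNCB. Its levels were 7.47, 6.75 and 6.23 FPKM in scMSC and 7.82, 9.43 and 5.27 FPKM in scivMSC. All 3 DNCB libraries were higher than all libraries of the other groups. Of all genes tested, 31.7% were higher in every DNCB than in every control library, and 17.1% lower in every scMSC than in every DNCB library. Sptlc2 rose by 0.87 ± 0.19 in DNCB against control (adjusted p = 0.00719, edgeR), a 1.82-fold difference in counts. It was lower in scMSC than in DNCB by a log2 fold change of -0.68 ± 0.19 (adjusted p = 0.0378). For scivMSC against DNCB the value was -0.56 ± 0.19 (adjusted p = 0.0942), which did not pass. The libraries of these groups did not overlap, and 16.3% of all genes tested were likewise lower in every scivMSC than in every DNCB library. The scMSC call was lost with any of 9 libraries left out (adjusted p 0.0512 to 0.12), which are all but control 3, scivMSC 2 and scivMSC 3, and in 5 of 9 other settings (library size alone, no filter, limma with either pseudocount and the replicate block, 0.0538 to 0.0705). The scivMSC comparison of Sptlc2 passed in DESeq2 (0.0424) and without scivMSC 2 (-0.74, adjusted p = 0.0419), while without scivMSC 3 it was -0.38 (0.277).

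Sptlc3 (ENSMUSG00000039092, chromosome 2, 139493913 to 139637674, plus strand) had the opposite course in DNCB. Its levels were 7.13, 7.998 and 12.7 FPKM in control, 6.08, 4.73 and 4.57 in DNCB, 5.71, 3.40 and 3.20 in scMSC, and 8.75, 7.61 and 8.25 in scivMSC. The control and scivMSC libraries were all above those of DNCB and scMSC, which overlapped each other. Of all genes tested, 16.1% were lower in every DNCB and 11.7% in every scMSC library than in every control library. In every scivMSC library 16.4% were higher than in every DNCB library and 5.16% than in every scMSC library. Sptlc3 fell by 1.03 ± 0.24 in DNCB against control (adjusted p = 0.0114) and by 1.33 ± 0.25 in scMSC against control (adjusted p = 0.00503). Without control replicate 3 these fold changes were -0.82 (adjusted p = 0.0337) and -1.14 (adjusted p = 0.0117). The fold change of scMSC against DNCB was -0.31 (95% interval -0.84 to 0.23), and that of scivMSC against DNCB 0.69 ± 0.24 (adjusted p = 0.114). Between the MSC groups Sptlc3 was 0.99 ± 0.24 higher in scivMSC on the log2 scale, with an unadjusted p of 0.00194 and an adjusted p of 0.565 in edgeR's test, and with an adjusted p of 0.0391 in DESeq2.

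The ratio of Sptlc2 to Sptlc3 within a library was 0.544 to 0.654 in control and 1.65 to 2.56 in DNCB. In scMSC it was 1.31 to 1.98 and in scivMSC 0.639 to 1.24. The pair thus changed order: Sptlc3 was the higher of both in every control library, and Sptlc2 in every DNCB and scMSC library. Ratios were formed after the values had been seen and carry no test.

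Sptlc1, the shared partner subunit, did not pass in DNCB against control, nor did the reductase Kdsr at the next step. Of the small subunits that tune the enzyme, Sptssa was 109 ± 17.8 FPKM (SD, n = 3) in control and 68.4 ± 15.2 in DNCB, and it fell by 0.85 ± 0.25 (adjusted p = 0.0308). Sptssb, the other one, was listed at 0, 0.028 and 0 FPKM in control, 0.497, 0.224 and 0.943 in DNCB, 4.05, 11.7 and 7.38 in scMSC and 1.84, 1.25 and 1.86 in scivMSC, so that all groups were separated from control. Of all genes tested, 31.7%, 25.9% and 24.3% were higher in every DNCB, scMSC and scivMSC library than in every control library. Sptssb was higher in scMSC than in DNCB by 3.84 ± 0.71 (adjusted p = 0.00642).

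Cers3 and Cers4 are ceramide synthases with different fatty acid partners: Cers3 makes the ceramides with very long acyl chains that the epidermal barrier needs, while Cers4 joins shorter acyl chains and is known from hair follicle and sebaceous gland. Cers4 (ENSMUSG00000008206, chromosome 8, 4493026 to 4525122, plus strand) stood at 14.1, 16.9 and 19.2 FPKM in control and at 2.88, 2.20 and 2.68 FPKM in DNCB. In scMSC it was 16.6, 8.88 and 9.48 FPKM and in scivMSC 17.7, 9.79 and 35.4 FPKM. The 3 DNCB libraries were the lowest of the 12, and the scMSC and scivMSC libraries overlapped those of control. Among all genes tested, 16.1% were lower in every DNCB than in every control library. Higher than in every DNCB library were 16% in every scMSC and 16.4% in every scivMSC library.

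The fold change of Cers4 was -2.87 ± 0.43 in DNCB against control (adjusted p = 0.00135), a 7.33-fold lower count. Against DNCB, Cers4 rose by 2.18 ± 0.42 in scMSC (adjusted p = 0.0075) and by 3.05 ± 0.43 in scivMSC (adjusted p = 0.0048). These 3 calls held in every alternative and with each library left out. Against control the fold change was -0.69 in scMSC (95% interval -1.58 to 0.20) and 0.18 in scivMSC (-0.70 to 1.06). The latter rested on scivMSC replicate 3, and without it the value was -0.52 and the rise over DNCB 2.39 (adjusted p = 0.00883).

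The sebaceous gland markers moved with Cers4. All 9 of 9 (Scd3, Awat1, Awat2, Far2, Mc5r, Fasn, Soat1, Plin5 and Pparg, genes of sebum lipid synthesis and its control) fell in DNCB against control, and 6 of 9 rose in scMSC and 7 of 9 in scivMSC against DNCB. Their summed level was 154 to 203 FPKM in control, 32.4 to 36.1 in DNCB, 75.2 to 151 in scMSC and 97.3 to 206 in scivMSC, and none was at 0. Cers4 as a share of this sum was 9.42% ± 0.22 (SD, n = 3) in control and 7.42% ± 0.59 in DNCB, and it reached 11.8% ± 0.82 in scMSC and 13.1% ± 3.65 in scivMSC. The share thus varied much less than the level, though each DNCB library (6.80% to 7.97%) lay below each control library (9.19% to 9.63%). Fasn, the most abundant of the 9 over all libraries, fell from a mean of 44.2 to 18.4 FPKM in DNCB. Scd3 (48.6 to 1.19), Awat1 (25.5 to 1.28) and Far2 (32.8 to 2.93) fell much further, while Soat1 (9.43 to 5.19) and Pparg (5.06 to 3.08) fell less. Fasn thus weighed more in the DNCB sum than in that of control. Fasn stood at 16.8, 18.8 and 19.5 FPKM of sums of 36.1, 32.4 and 35.9 in DNCB replicates 1 to 3. In control it was 32.8, 55.9 and 43.9 FPKM of 154, 176 and 203. Without Fasn in the sum, the Cers4 share would be higher in each DNCB library than in each control library. The lower share in DNCB thus depended on Fasn. Smpd1 as a share of the same sum of 9 markers was 15.5% ± 2.16 in control and 38.75% ± 0.82 in DNCB. Its share was 28.85% ± 9.87 in scMSC and 17.85% ± 5.33 in scivMSC. The pairings of gene and list were chosen after the values were seen, and the part of the glands in the result was not tested.

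**Figure D2:**
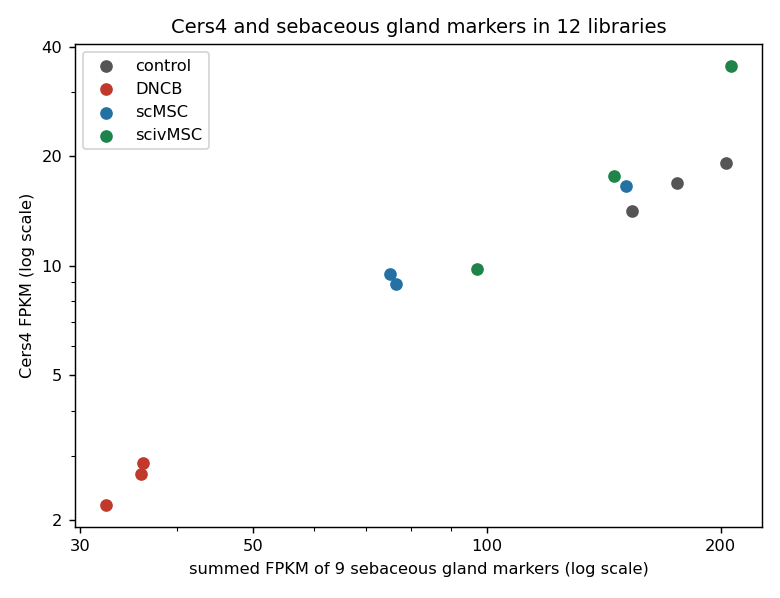
Cers4 level in FPKM (y axis, log scale) against the summed FPKM of 9 sebaceous gland markers (x axis, log scale), 1 point per library, coloured by group. The 3 DNCB libraries lie apart at 32.4 to 36.1 summed FPKM and 2.20 to 2.88 FPKM of Cers4, and the other 9 spread from 75.2 summed FPKM and 8.88 FPKM of Cers4 upward.

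Cers3 (ENSMUSG00000030510, chromosome 7, 66743504 to 66823691, plus strand) passed in no comparison. Its levels were 8.17, 13.5 and 16.9 FPKM in control, 19.1, 20.1 and 17.5 in DNCB, 16.9, 21.1 and 14.3 in scMSC, and 20.8, 19.5 and 13.4 in scivMSC. The DNCB libraries were all above those of control, as for 31.7% of all genes tested, and the remaining groups overlapped both. The fold change in DNCB was 0.38 (95% interval -0.16 to 0.92, adjusted p = 0.289). It was -0.09 for scMSC and -0.08 for scivMSC against DNCB. The ratio of Cers3 to Cers4 was 0.578 to 0.882 in control, 6.53 to 9.11 in DNCB, 1.02 to 2.37 in scMSC and 0.380 to 1.99 in scivMSC, so that Cers4 was the higher one in each control library and Cers3 in each DNCB library.

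Among the other ceramide synthases, Cers6 rose by 0.58 ± 0.17 in DNCB against control (adjusted p = 0.0254) from 2.12 ± 0.51 to 3.60 ± 0.30 FPKM, while Cers1, Cers2 and Cers5 passed in no comparison. Fa2h, which hydroxylates the fatty acid before it enters ceramide, had the smallest p of the other 50 pathway genes in DNCB against control. It was at 103, 128 and 99.8 FPKM in control, 8.83, 3.11 and 6.84 in DNCB, 114, 55.3 and 54.0 in scMSC and 124, 56.8 and 157 in scivMSC. As with Cers4, the DNCB libraries lay far below all others. Fa2h fell by 4.33 ± 0.51 in DNCB (adjusted p = 0.000611) and rose by 3.58 ± 0.49 in scMSC (adjusted p = 0.00231) and 4.19 ± 0.51 in scivMSC (adjusted p = 0.00319).

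Degs2 encodes a desaturase that also hydroxylates the sphingoid base and so yields the phytoceramides of skin. Degs2 (ENSMUSG00000021263, chromosome 12, 108678711 to 108702297, minus strand) was the least abundant of the 10 genes in control, at 0.911, 3.10 and 2.92 FPKM. It was at 8.98, 8.44 and 5.39 FPKM in DNCB, at 1.09, 0.828 and 0.381 in scMSC, and at 2.53, 4.06 and 0.651 in scivMSC. The DNCB libraries were the 3 highest, and the scMSC libraries overlapped with both control and scivMSC. Of all genes tested, 31.7% were likewise higher in every DNCB than in every control library. In every scMSC library 17.1% were lower than in every DNCB library, and in every scivMSC library 16.3%.

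Degs2 was lower in scMSC than in DNCB by a log2 fold change of -3.27 ± 0.67 (adjusted p = 0.0100), the largest fall from DNCB among the 10 genes. For DNCB against control the value was 1.54 ± 0.62 (adjusted p = 0.0974) and for scivMSC against DNCB -1.67 ± 0.63 (adjusted p = 0.135), and neither passed. DESeq2 gave adjusted p = 0.0379 and 0.0354 for these, and limma with a pseudocount of 1 gave 0.0231 and 0.0496. Without scivMSC replicate 3 the first was at 0.0499, while the second was -1.22 (adjusted p = 0.281). For scMSC against control it was -1.73 ± 0.63 (adjusted p = 0.0826), which passed without scivMSC replicate 3 (0.0346) and in DESeq2 (0.0181). Degs1, the general ceramide desaturase, was at 29.8 ± 3.8 FPKM in control and 63.3 ± 15.1 in DNCB, and it did not pass (adjusted p = 0.0684). Degs2 overlaps Evl and Gm33467 on the other strand, and Sptlc2, Sptlc3, Cers4 and Acer1 also overlap non-coding genes or a pseudogene. Whether counting used strand is not given in the sources used here.

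Ugcg makes glucosylceramide, the form in which ceramide is stored for the barrier, and Abca12 carries it into lamellar granules. Ugcg (ENSMUSG00000028381, chromosome 4, 59189257 to 59222833, plus strand) stood at 8.78, 11.2 and 15.4 FPKM in control, 21.3, 18.5 and 21.6 in DNCB, 18.5, 21.5 and 13.2 in scMSC and 16.8, 18.7 and 12.3 in scivMSC. Every DNCB library was above every control library (again, 31.7% of all genes were so placed), and the MSC groups overlapped both. Its fold change in DNCB was 0.62 ± 0.23 (adjusted p = 0.0675), which did not pass. It passed with library size alone (0.0293), in limma on log2(FPKM + 0.1) and on log2(FPKM + 1) (0.0237 in each), without control replicate 3 (0.0492) and without scMSC replicate 3 (0.0436). Against DNCB it was -0.17 (95% interval -0.67 to 0.32) in scMSC and -0.36 (-0.85 to 0.14) in scivMSC, or -0.22 without scivMSC replicate 3.

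Abca12 (ENSMUSG00000050296, chromosome 1, 71242276 to 71414910, minus strand) overlapped between all pairs of groups. Its levels were 6.41, 8.60 and 16.3 FPKM in control, 9.03, 8.59 and 7.86 in DNCB, 9.99, 8.52 and 4.72 in scMSC and 12.7, 11.2 and 7.89 in scivMSC. The control libraries alone spanned a wider range than the 3 DNCB libraries. The fold change of Abca12 in DNCB was -0.46 (95% interval -1.19 to 0.26, adjusted p = 0.339). It rested on control replicate 3, without which it was -0.08 (adjusted p = 0.883). In scivMSC against DNCB the fold change was 0.32 (95% interval -0.40 to 1.04), or 0.47 without scivMSC replicate 3 (adjusted p = 0.557).

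At the same steps, Sgms2, which turns ceramide into sphingomyelin, was at 1.66 ± 0.33 FPKM in control and 5.16 ± 1.12 in DNCB. It rose by 1.44 ± 0.21 in DNCB (adjusted p = 0.00121) and fell by 1.12 ± 0.21 in scMSC (adjusted p = 0.00624) and by 1.29 ± 0.21 in scivMSC (adjusted p = 0.00663) against DNCB. B4galt5, which adds galactose to the product of Ugcg, fell by 1.32 ± 0.29 from DNCB in each MSC group (adjusted p = 0.0137 and 0.0217). Samd8, a relative of the sphingomyelin synthases, rose by 0.51 ± 0.15 in scMSC against DNCB (adjusted p = 0.0440).

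Smpd1, the acid sphingomyelinase, releases ceramide from sphingomyelin. Smpd1 (ENSMUSG00000037049, chromosome 7, 105554360 to 105558389, plus strand) was at 20.2, 28.1 and 35.4 FPKM in control and at 13.7, 12.7 and 14.1 FPKM in DNCB. It was at 27.6, 28.9 and 22.9 in scMSC and at 27.3, 22.05 and 25.02 in scivMSC. All 9 libraries outside the DNCB group were above the 3 inside it, and the control, scMSC and scivMSC libraries overlapped. Of all genes tested, 16.1% were lower in every DNCB than in every control library. In every scMSC library 16% were higher than in every DNCB library, and in every scivMSC library 16.4%.

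Smpd1 fell by 1.23 ± 0.18 in DNCB against control (adjusted p = 0.00131), a 2.34-fold lower count. It rose by 1.00 ± 0.18 in scMSC (adjusted p = 0.00577) and by 0.89 ± 0.18 in scivMSC (adjusted p = 0.0163) against DNCB. The scivMSC call was lost when DNCB 1, DNCB 2, DNCB 3, scivMSC 1 or scivMSC 3 was left out (adjusted p 0.0501 to 0.0677), with fold changes of 0.83 to 0.92. The ratio of Ugcg, which consumes ceramide, to Smpd1, which releases it, was 0.399 to 0.436 in control, 1.46 to 1.56 in DNCB, 0.578 to 0.745 in scMSC and 0.491 to 0.850 in scivMSC. The DNCB libraries lay apart from all others in this ratio.

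Of the other release enzymes, the neutral sphingomyelinase Smpd3 fell by 1.46 ± 0.37 in DNCB (adjusted p = 0.0147) and the non-lysosomal glucosylceramidase Gba2 by 1.19 ± 0.29 (adjusted p = 0.0131).

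**Figure D3:**
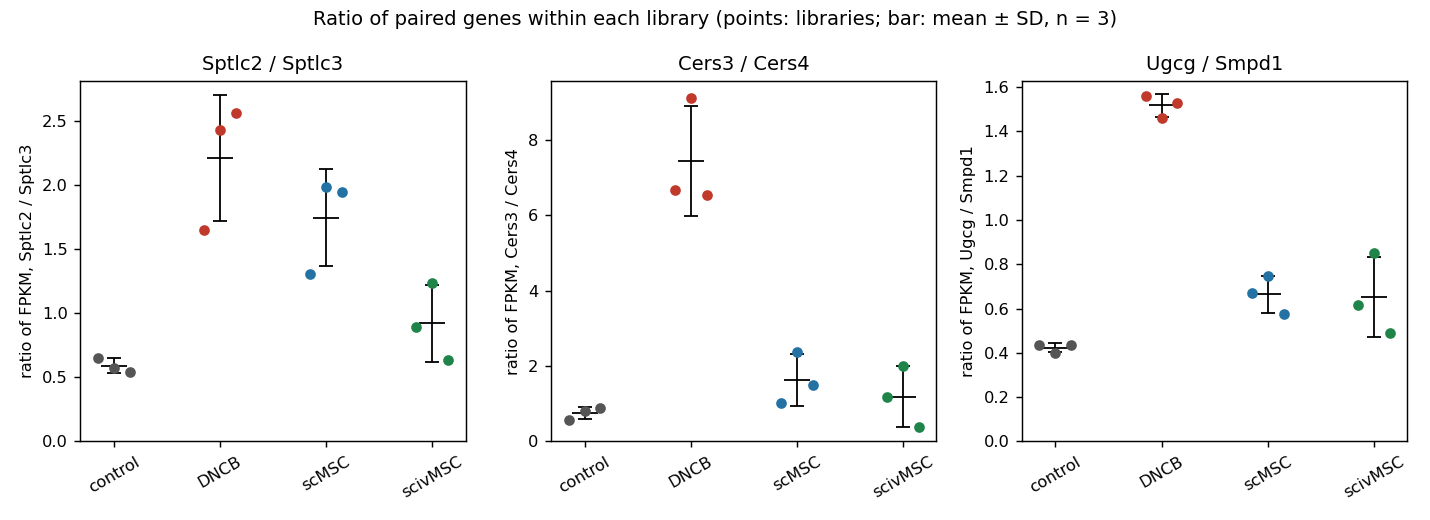
Ratio of FPKM within each library (y axis from 0, each panel on its own scale) for Sptlc2 to Sptlc3, Cers3 to Cers4 and Ugcg to Smpd1; points are libraries and bars the mean ± SD of 3. The mean ratio was 0.591, 0.752 and 0.423 in control and 2.21, 7.43 and 1.52 in DNCB.

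Acer1 and Asah2 are ceramidases, which split ceramide into sphingosine and fatty acid. Acer1, the alkaline ceramidase of differentiating keratinocytes, is known to matter for hair and the water barrier. Acer1 (ENSMUSG00000045019, chromosome 17, 56953490 to 56982126, minus strand) had the highest mean of the 10 genes in every group. It stood at 32.5, 48.0 and 57.2 FPKM in control, 22.8, 29.5 and 18.1 in DNCB, 42.5, 39.9 and 27.7 in scMSC and 47.9, 38.6 and 46.9 in scivMSC. The DNCB libraries were below those of control and scivMSC, as for 16.1% and 16.4% of all genes tested. The scMSC replicate 3 lay within the DNCB range.

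Acer1 fell by 1.14 ± 0.25 in DNCB against control (adjusted p = 0.00717). It rose by 0.93 ± 0.25 in scivMSC against DNCB (adjusted p = 0.0428), and the fold change of scMSC against DNCB was 0.67 ± 0.25 (adjusted p = 0.107). The difference between the MSC groups was 0.26 (95% interval -0.28 to 0.80), so a route effect was not shown. The scivMSC call was lost without any of 8 libraries (control 2, DNCB 1 to 3, scMSC 1 or 2, scivMSC 1 or 3), with adjusted p 0.0509 to 0.145. It was also lost with no filter (0.0566) and with the replicate number as a block (0.0714).

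The suprabasal keratinocyte markers, a list of 10, did not move as a whole with Acer1. In DNCB 2 of 10 fell, Lor, of the cornified envelope, and Flg2, a relative of filaggrin, and 0 rose, and both rose again in each MSC group against DNCB. The summed level overlapped between the groups, with 4550 to 11288 FPKM in control, 6391 to 10532 in DNCB, 4094 to 8338 in scMSC and 7034 to 11886 in scivMSC, and none was at 0. Acer1 was 0.507% to 0.714% of this sum in control and 0.247% to 0.284% in DNCB. All MSC libraries were above the DNCB range, at 0.510% to 0.781% in scMSC and 0.325% to 0.667% in scivMSC. Krt10 and Krt1, at means of 4976 and 2145 FPKM in DNCB, made up most of the sum. The share thus mainly sets Acer1 against these keratins. Lor (-2.71 ± 0.36) and Flg2 (-4.91 ± 0.75) fell further than Acer1 in DNCB. This pairing, too, was chosen after the values were seen and carries no test.

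Asah2, the neutral ceramidase, was low in skin. Asah2 (ENSMUSG00000024887, chromosome 19, 31982597 to 32108168, minus strand) was at 2.91, 3.38 and 5.63 FPKM in control, 1.97, 1.80 and 1.46 in DNCB, 2.55, 1.57 and 1.17 in scMSC and 3.62, 2.83 and 2.10 in scivMSC. The DNCB and scMSC libraries overlapped, and both groups lay below control, as did 16.1% and 11.7% of all genes tested. Asah2 fell by 1.36 ± 0.30 in DNCB (adjusted p = 0.00812) and by 1.32 ± 0.30 in scMSC (adjusted p = 0.0130) against control. Without control replicate 3, Asah2 was at -1.11 (adjusted p = 0.0272) and -1.09 (adjusted p = 0.0385) there. Its fold change of scMSC against DNCB was 0.04 (95% interval -0.62 to 0.69). The value was 0.71 ± 0.30 for scivMSC against DNCB (adjusted p = 0.184) and 0.67 ± 0.30 between the MSC groups (adjusted p = 0.661). Without scivMSC replicate 3 these were 0.87 (adjusted p = 0.18) and 0.85 (adjusted p = 0.641). Fitted with control and scMSC alone, the scMSC call was lost (adjusted p = 0.0542).

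The other 9 breakdown genes, among them Asah1, Acer2 and the sphingosine kinases, had 0 of 9 passing in DNCB against control in edgeR's test, with 2 at an unadjusted p under 0.05, 1 passing in DESeq2 and 0 in limma. Acer2, an alkaline ceramidase of the Golgi, had a mean of 2.17 ± 0.39 FPKM in control and 3.26 ± 0.07 in DNCB, against 5.37 ± 2.92 in scMSC and 6.66 ± 1.505 in scivMSC. It rose by 1.14 ± 0.29 in scMSC (adjusted p = 0.0211) and by 1.44 ± 0.29 in scivMSC (adjusted p = 0.0114) against control. Acer1 and Acer2 thus differed in course: the first was lowest in DNCB, the second in control.

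Counted over the 10 genes, DNCB against control gave 1 higher and 5 lower, beside 12.9% higher and 12.4% lower among all genes tested. The median fold change of the 10 was -0.74, beside 0.02 for all genes. In scMSC against DNCB 2 were higher (Cers4, Smpd1) and 2 lower (Degs2, Sptlc2), beside 6.95% and 5.77%, with medians of -0.10 and 0.02. In scivMSC against DNCB 3 were higher (Cers4, Smpd1, Acer1) and 0 lower, beside 4.56% and 3.6%, with medians of 0.50 and 0.02. Of those 3, Cers4 also changed by over 2-fold, as did 5.46% of all genes. The count of 3 fell to 1 when DNCB 1, DNCB 2, DNCB 3, scivMSC 1 or scivMSC 3 was left out. Both MSC comparisons share the DNCB libraries.

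Against control, scMSC skin gave 0 higher and 2 lower (Sptlc3, Asah2), beside 10.4% and 8.12% of all genes. For scivMSC skin edgeR called 0 of 10 in either direction, beside 7.11% higher and 6.13% lower, and 0 were at an unadjusted p under 0.05 or passed in DESeq2 or limma. The widest interval there was that of Degs2, -1.49 to 1.21 on the log2 scale, and that of Cers4 was -0.70 to 1.06, so both intervals include 2-fold differences. Between scivMSC and scMSC edgeR also called 0 of 10, beside 0.00457% (1 gene) higher and 0% lower in all genes, with Sptlc3, Degs2 and Asah2 at an unadjusted p under 0.05 and Sptlc3 passing in DESeq2. The fold change of Degs2 there was 1.60 ± 0.63 (adjusted p = 0.621). A gene that passed against control in scMSC and not in scivMSC is therefore not shown to differ between the routes.

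**Figure D4:**
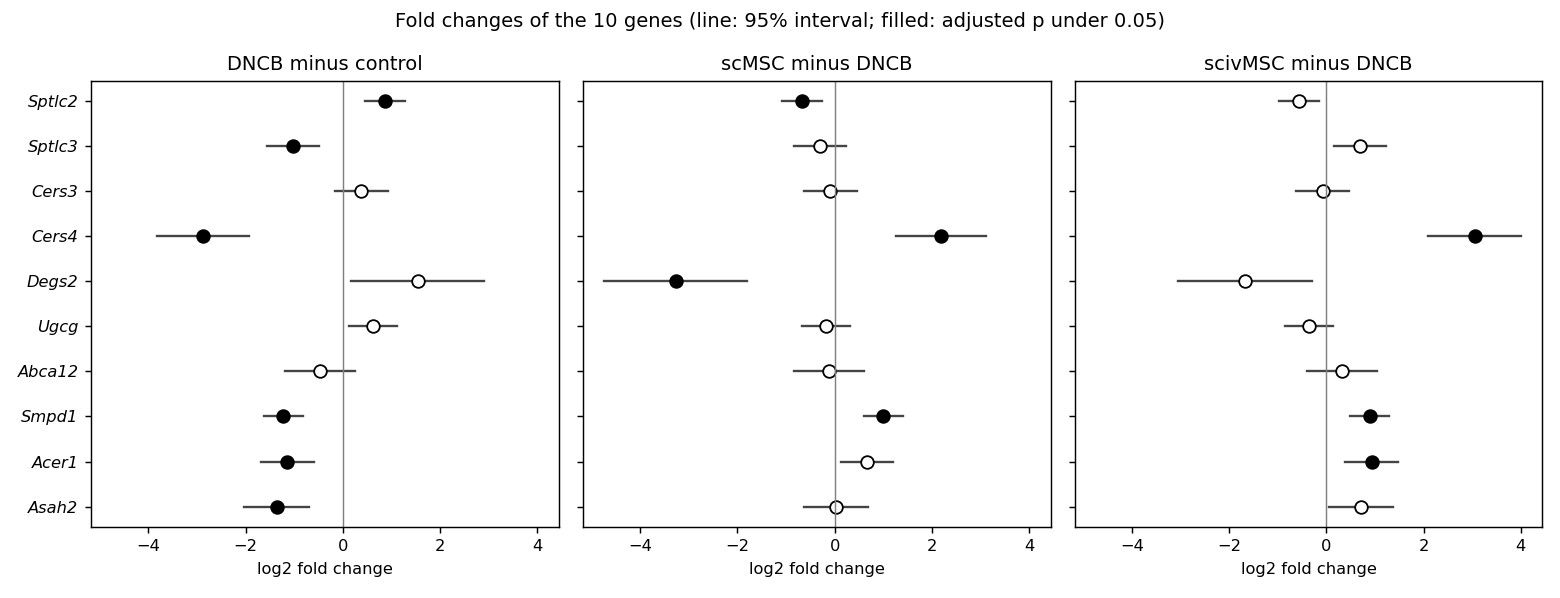
Fold changes of the 10 genes on the log2 scale (x axis) in DNCB against control, scMSC against DNCB and scivMSC against DNCB; lines are 95% intervals and filled points passed at an adjusted p under 0.05. Cers4 was at -2.87, 2.18 and 3.05 and Smpd1 at -1.23, 1.00 and 0.89, while Degs2 at 1.54, -3.27 and -1.67 had the widest intervals.

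Markers of other cells and states moved between the same groups as these genes. All 4 stress keratinocyte keratins (Krt6a, Krt6b, Krt16, Krt17) rose in DNCB against control, from a summed 484 to 553 FPKM to 7079 to 8807 FPKM. Their sum was 683 to 1453 in scMSC and 1152 to 4581 in scivMSC, the highest being scivMSC replicate 2, which also had the highest Degs2, Sptlc2 and Ugcg levels of its group. All 6 neutrophil markers rose in DNCB (121 to 208 FPKM in control, 2447 to 3349 in DNCB) and fell in both MSC groups (15.5 to 65.6 and 34.3 to 173). Ly6g was at 0 in every library outside DNCB. S100a9 and S100a8, at means of 1966 and 916 FPKM in DNCB, made up most of the sum there. Basal keratinocyte keratins and integrins had 3 of 6 higher and 1 of 6 lower in DNCB, with sums of 2178 to 3028 FPKM in control, 8192 to 10472 in DNCB, 1740 to 2577 in scMSC and 2875 to 5496 in scivMSC.

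Skeletal muscle transcripts were higher in control than in every other group (13312 to 19349 FPKM over 5 markers against 3528 to 9360), with 4 of 5 markers lower in each. Fibroblast markers had 3 of 5 higher in DNCB (174 to 253 FPKM in control, 1186 to 1484 in DNCB, 171 to 519 in scMSC, 88.8 to 642 in scivMSC). Adipocyte markers had 2 of 4 lower in DNCB (95.2 to 164 in control, 56.9 to 116.5 in DNCB). The 6 macrophage markers had 0 passing in that comparison. Of the 11 hair shaft and root sheath genes measured, 1 was higher in DNCB than in control. Against DNCB, 7 were higher in scMSC and 4 in scivMSC (306 to 963 FPKM in DNCB, 7151 to 20275 in scMSC, 2638 to 6484 in scivMSC). The control sums were 14.5, 350 and 5.72 FPKM in replicates 1 to 3, so control replicate 2 lay within the DNCB range. The part of these cells in the changes of the 10 genes was not tested.

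The other 50 genes of the pathway, drawn up by function, had 3 higher and 13 lower in DNCB against control, beside 12.9% and 12.4% of all genes. Of the 8 genes of chain elongation, which supplies the long fatty acids, 6 fell and 0 rose, and the steps were not tested against each other. Elovl3, an elongase of sebaceous gland and hair follicle, fell from 74.4 ± 9.5 to 8.62 ± 5.61 FPKM (-3.29 ± 0.55, adjusted p = 0.00203). Elovl6, which extends palmitate, fell from 63.9 ± 15.2 to 8.15 ± 2.83 FPKM (-3.15 ± 0.42, adjusted p = 0.000951). Elovl4, the source of the longest acyl chains of epidermal ceramide, fell from 264 ± 61.8 to 88.4 ± 10.3 FPKM (-1.76 ± 0.33, adjusted p = 0.00355). Of the 7 genes of acylceramide and the lipid envelope, 3 fell and 0 rose: the lipoxygenases Aloxe3 (-1.38 ± 0.30, adjusted p = 0.00682) and Alox12b (-1.36 ± 0.34, adjusted p = 0.0136), and the fatty acid carrier Slc27a4 (-1.30 ± 0.28, adjusted p = 0.00648).

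Against DNCB, 9 of the 50 rose and 2 fell in scMSC (beside 6.95% and 5.77% of all genes), and 10 rose and 2 fell in scivMSC (beside 4.56% and 3.6%). Sgms2 and B4galt5 were the 2 that fell in each. Elovl3, Elovl4 and Elovl6 rose in both, by 2.86, 1.19 and 2.52 in scMSC and by 3.60, 2.04 and 3.18 in scivMSC. Pnpla1, which makes the acylceramide, rose by 1.295 ± 0.317 in scMSC (adjusted p = 0.0223) from 7.03 ± 0.55 to 16.8 ± 6.6 FPKM, and Aloxe3 rose in both groups (1.09 ± 0.29, adjusted p = 0.0342, and 1.72 ± 0.30, adjusted p = 0.00911). Against control, 3 were higher and 3 lower in scMSC, beside 10.4% and 8.12% of all genes. In scivMSC 2 were higher (Sptssb, Acer2) and 0 lower, beside 7.11% and 6.13%. Between the MSC groups edgeR called 0 of 50, with 10 at an unadjusted p under 0.05, 2 passing in DESeq2 and 0 in limma. The count of 12 in scivMSC fell to 6 or 7 when DNCB 1, DNCB 2, DNCB 3, scivMSC 1 or scivMSC 3 was left out. That of 11 in scMSC fell to 5 or 6 when DNCB 1, DNCB 2, DNCB 3 or scMSC 2 was left out.

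**Figure D5:**
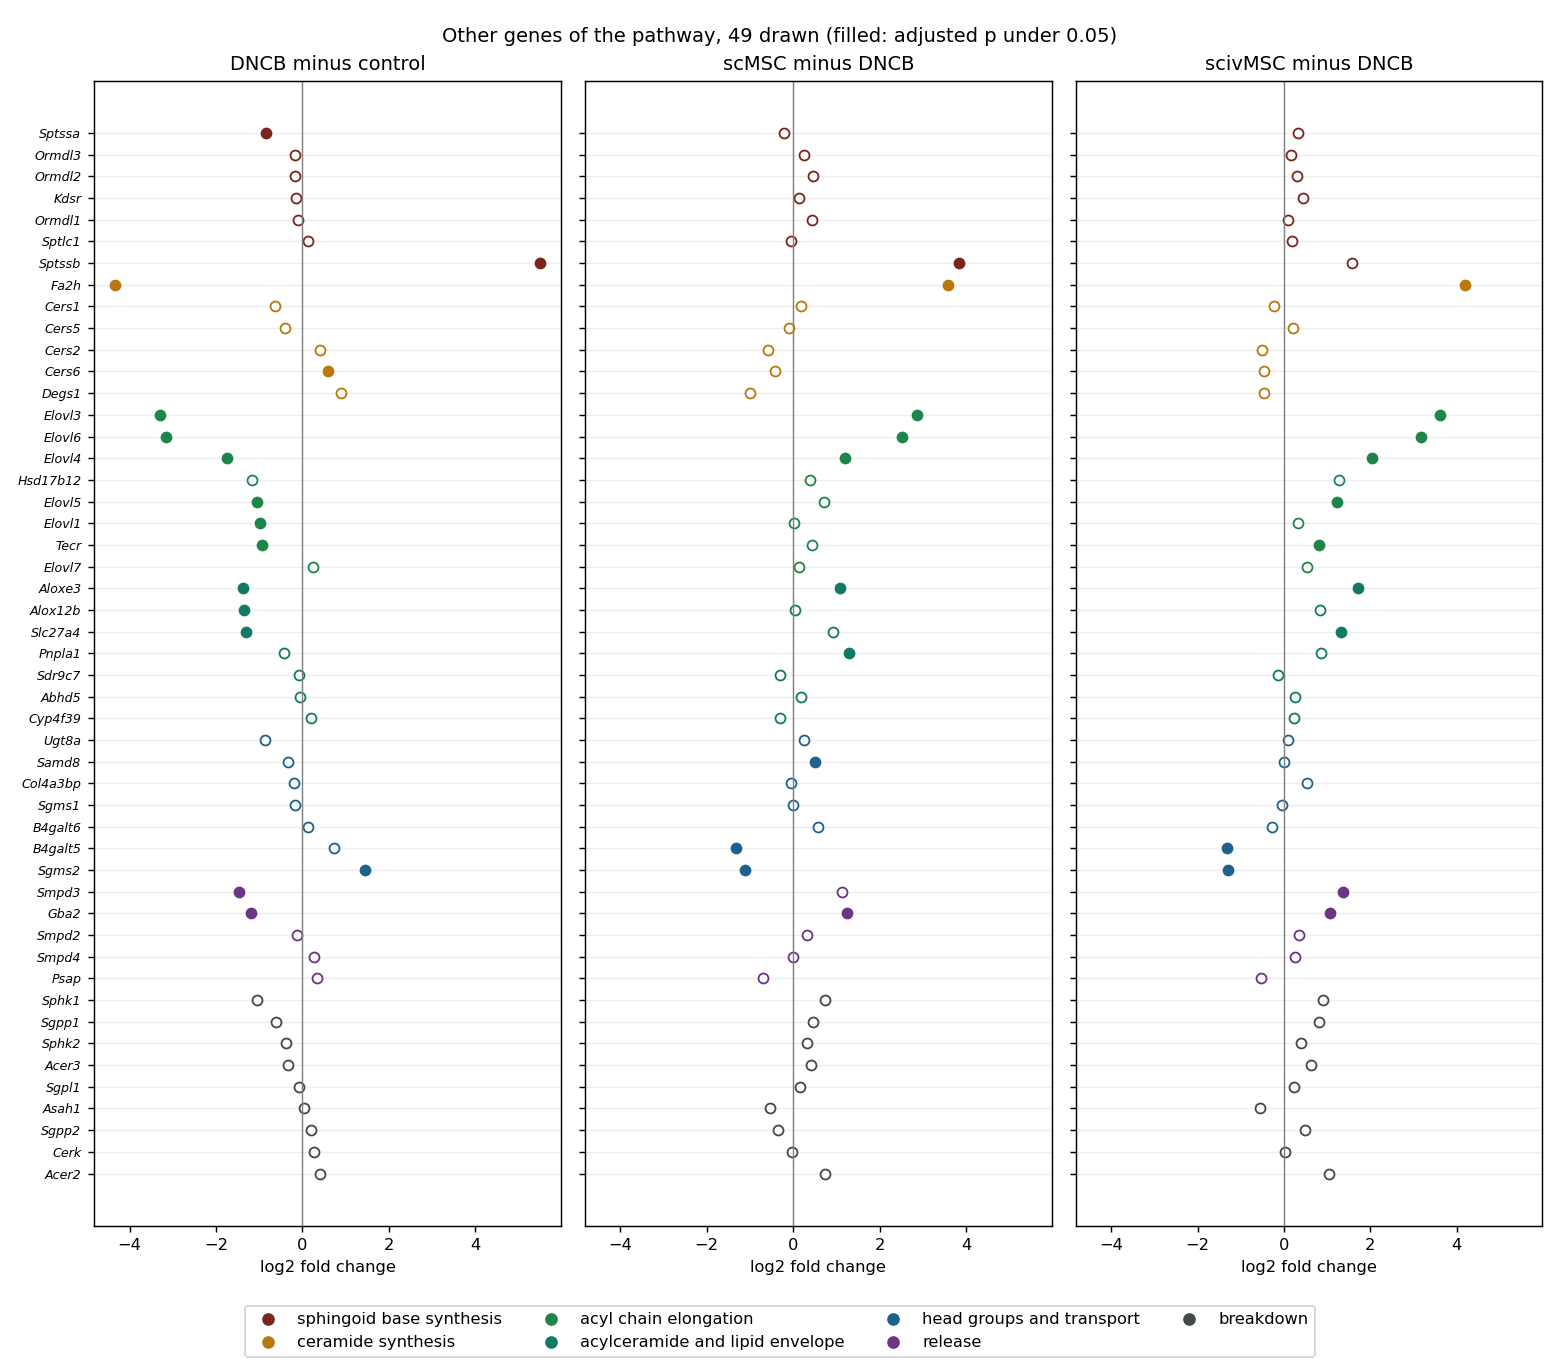
Fold changes on the log2 scale (x axis) of 49 of the other 50 pathway genes (rows, coloured by step) in DNCB against control, scMSC against DNCB and scivMSC against DNCB; filled points passed at an adjusted p under 0.05. Filled points number 16, 11 and 12, and the elongases Elovl3, Elovl4 and Elovl6 are filled to the left in the first panel and to the right in the others.

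Across the 12 libraries, the genes whose level ran most alike to each of the 10 were found among 12794 genes by Pearson's r of log2(FPKM + 0.1). The libraries share 4 groups, so r describes mainly the group pattern. Cers4 was most alike to Cyp3a57 (r = 0.991) and Clstn3 (0.988), and Smpd1 to Xkrx (0.974) and Gabarapl2 (0.971). Acer1 was most alike to the late envelope gene Lce1f and to Serpina12 (both 0.957), and Degs2 to the cysteine and serine protease inhibitors Csta1 (0.950) and Serpinb3b (0.944). For Sptlc2 these were Coro1c (0.983) and the sphingosine 1-phosphate receptor S1pr2 (0.981), and for Asah2 Dmkn (0.984) and H2-T23 (0.973). Sptlc3 had Asah2 as its second (0.919), after Tapbpl (0.932). For Cers3 they were Atp6v0d1 (0.960) and Mxd1 (0.959), for Ugcg Ptpn1 and Vps4b (both 0.956), and for Abca12 Itpr2 (0.951) and Nipal4 (0.930). Among the 10 themselves, the highest r after that of Sptlc3 with Asah2 was 0.902, between Cers3 and Ugcg, and the lowest was -0.790, between Sptlc2 and Cers4.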

How the data were processed

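RNA sequencing of dorsal skin gave 12 libraries, 3 in each of 4 groups. The authors deposited FPKM (scaled to transcript length and mapped fragments) and whole-number estimated counts per gene, the counts not normalized between libraries. The submitters' processing notes name Bowtie 0.12.2, HISAT2 2.0, StringTie 1.3.0 and the build mm8, while the coordinates in the table are those of GRCm38. Multiples of 4 made up 38.95% to 41.25% of the estimated counts of 1 to 18 in a library, so 1 fragment may stand as several counts, and standard errors cover the spread between libraries.

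Genes whose mean FPKM reached 0.1 were fitted in edgeR 4.0.16 (R 4.3.3), with TMM factors of 0.887 to 1.06 and a quasi-likelihood model of all 4 groups. The common biological coefficient of variation was 0.42. DESeq2 1.42.0, limma 3.58.1 on log2(FPKM + 0.1) or log2(FPKM + 1), other scalings, no filter, counts divided by 4, the compared groups alone, a replicate block and leaving out each library were alternatives. Python 3.11.15, pandas 2.3.3, numpy 2.4.6 and matplotlib 3.10.9 made the tables and figures. The steps were tested on simulated data.

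The 10 members, the pathway and marker lists and the tests were chosen with earlier results of these data known. Named genes were all 10 members, up to 4 genes per list and comparison with the smallest p that passed, genes at the next step of the pathway as a member, and the 2 genes most alike to each member (mean of at least 1 FPKM). Genes outside this rule (among them Smpd3, Slc27a4, Alox12b, Aloxe3, Pnpla1, Acer2, Samd8, and the genes of other sphingolipids in the closing section) were named after their values were seen. Of the pathway list, 1 gene is in the counts but is not reported here. Replicates of a group correlated at 0.928 to 0.957.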

Additional observations from a re-analysis of the deposited data

How the results depend on the processing

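The replicate numbers did not pair the libraries: 1 of 18 same-number pairs had deviations correlated over 0.1 (range -0.21 to 0.149), and 2 of 12 libraries correlated best with their own number. With the replicate block, 6, 3, 2, 2, 0 and 0 of the 10 genes passed in the 6 comparisons (DNCB against control, scMSC and scivMSC against DNCB, scMSC and scivMSC against control, scivMSC against scMSC), beside 6, 4, 3, 2, 0 and 0 without it, and 16, 8, 8, 4, 2 and 0 of the other 50 pathway genes. Leaving out 1 library gave 6 to 7, 3 to 4, 1 to 4, 2 to 3, 0 to 0 and 0 to 0 of the 10, and 11 to 18, 5 to 16, 6 to 15, 3 to 8, 1 to 3 and 0 to 0 of the 50. DESeq2 called 5 of the 10 in scivMSC against DNCB and 1 between the MSC groups, and 18 and 2 of the 50 in scMSC against DNCB and between the MSC groups. Requiring a 2-fold change left 1 of the 10 in scivMSC against DNCB. Fitting scMSC and control alone gave 1 of the 10 and 1 of the 50. In scivMSC against control, library size alone gave 6 and limma 7 of the 50 with either pseudocount. Library size alone moved the median of all genes in DNCB against control from 0.02 to 0.203, and in scMSC and scivMSC against control to 0.159 and 0.214. The cause was not tested.

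Directions turned only for fold changes that did not pass. In scivMSC against control, Degs2 was 0.062 with library size alone and -0.72 to 0.28 with 1 library left out (above 0 without control 2 or scivMSC 3). Abca12 was 0.020 with library size alone, 0.10 and 0.089 in limma with pseudocounts of 0.1 and 1, and -0.43 to 0.24 with 1 library left out (above 0 without control 3). Cers4 was -0.52 (without scivMSC 3) to 0.53. In scMSC against DNCB, Asah2 was -0.039 and -0.014 in limma and -0.28 to 0.26 with 1 library left out (below 0 without DNCB 3 or scMSC 1). In the same comparison the ranges were -0.32 to 0.051 for Cers3, -0.41 to 0.0097 for Ugcg and -0.29 to 0.16 for Abca12, each above 0 without scMSC 3. Cers3 in scivMSC against DNCB ranged from -0.18 to 0.075, above 0 without scivMSC 3. Between the MSC groups, Cers3 was -0.013 with RLE factors and in DESeq2 and -0.13 to 0.24 with 1 library left out (below 0 without scMSC 1 or 3 or scivMSC 1 or 2). There Sptlc2 ranged from -0.060 (without scivMSC 2) to 0.31, Ugcg from -0.37 to 0.048 and Smpd1 from -0.22 to 0.018, the last pair above 0 without scMSC 2.

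The size of a fold change alone did not set the call. In DNCB against control, Ugcg (1.54-fold, standard error 0.23) and Degs2 (2.90-fold, 0.62) did not pass, while Sptlc2 (1.82-fold, 0.19) did. With 3 libraries a group, whether Ugcg and Degs2 differ there is not decided.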

Other observations

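The table's own KEGG annotation lists 48 genes under sphingolipid metabolism, 9 of them among the 10. Of the 39 others, 36 were tested, and 5 of them were higher and 5 lower in DNCB against control, beside 12.9% and 12.4% of all genes. Among the 36, 11 are in none of the lists above, and they handle the sugars, sulfate or phosphate of sphingolipids. Of these 11, 3 rose and 3 fell in that comparison in edgeR's test. Gla, the lysosomal alpha-galactosidase, rose by 2.37 ± 0.28 (adjusted p = 0.000611), from a mean of 1.61 to 9.47 FPKM, and it fell from DNCB by 0.92 ± 0.27 in scMSC (adjusted p = 0.0458) and by 1.39 ± 0.27 in scivMSC (adjusted p = 0.0137). Neu1, the lysosomal sialidase, rose by 0.60 ± 0.15 (adjusted p = 0.0148), and Galc, which removes galactose from galactosylceramide, by 0.92 ± 0.28 (adjusted p = 0.0362).

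Neu2, the cytosolic sialidase, fell by 2.60 ± 0.29 in DNCB (adjusted p = 0.000523), from a mean of 53.2 to 10.01 FPKM. Unlike Cers4 it did not pass against DNCB in either MSC group (0.41 ± 0.28, adjusted p = 0.406, and 0.20 ± 0.28, adjusted p = 0.737), and it stayed below control in both (-2.19 ± 0.29, adjusted p = 0.00126, and -2.40 ± 0.29, adjusted p = 0.00388). Skeletal muscle transcripts were likewise highest in control (13312 to 19349 summed FPKM over 5 markers, against 3528 to 9360 in the other groups), and the part of muscle was not tested. Gal3st1, which makes sulfatide, fell by 2.10 ± 0.38 (adjusted p = 0.00321), and Neu3, the plasma membrane sialidase, by 0.71 ± 0.19 (adjusted p = 0.0187). Neu3 rose by 0.97 ± 0.19 in scivMSC against DNCB (adjusted p = 0.0138), while in scMSC it was at 0.45 ± 0.19 (adjusted p = 0.155).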
